A study of Rattus norvegicus with 6 samples.

Results

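The macrophage genes described here are a list of 32 genes by which macrophages are recognised or through which they grow, take up material and signal. A gene was measured where a probe set (a group of short probes that reports one transcript) is annotated with that gene alone. This gave 31 of the 32 genes, with 1 probe set each, among 28879 probe sets on the array. Fcgr2b, the inhibitory receptor for immunoglobulin G, was not measured on its own, because its probe set also names Fcgr2a and Fcgr2al1. All 31 measured genes passed the filter on dim probe sets and entered the fit.

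RNA came from thoracic aortae cleaned of fat and connective tissue. They were taken from 24-week-old untreated spontaneously hypertensive rats (SHR), an inbred strain with high blood pressure, and from Wistar-Kyoto rats (WKY), the strain with normal pressure commonly set beside it. Each strain had 3 Affymetrix Rat Gene 2.0 ST arrays. Whether the 3 arrays of a strain came from 3 separate rats is not stated, and the p-values therefore cover only array-to-array spread, which may be technical. Levels are on the log2 scale and differences are SHR minus WKY. The 6 array medians ran from 2.29 to 2.52, and no detection call is available, so a level near or under 2.52 is not shown to lie above background. Samples stood apart in 2 ways that touch the results. SHR replicate 1 had the highest mean level of sympathetic neuron markers, 6.06 against 2.05 to 2.86 on the other 5. Th, Dbh, Snap25 and Npy were highest on that array, though Npy also lay at 3.16 to 4.87 on the other 5. Phox2a, of the same list, was highest on WKY replicate 3 (3.21, against 2.70 on SHR replicate 1). WKY replicate 3 had the narrowest distribution, where the SD of all values was 2.12, the other 5 having 2.22 to 2.27.

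Macrophages of the arterial wall lie mainly in the outer coat, the adventitia, and in the fat around it. The growth factor CSF1, made largely by stromal cells, keeps them alive through its receptor CSF1R, and the transcription factor PU.1, encoded by Spi1, switches on much of their gene set. They bind microbes and antibody-coated particles, clear dying cells and haemoglobin, and break down what they engulf in lysosomes.

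PU.1 binds purine-rich DNA around GGAA, and many macrophage genes carry such letters near their start. The 250 bases before the start of transcription were taken from RefSeq (GRCr8) for the 22 listed genes that the table holds. No window was given for Csf1, Fcgr1a, Fcgr2b, Fcer1g, Tyrobp, Aif1, Itgb2, Siglec1, Spi1 or Pf4. The letters GAGGAA, on either strand (GAGGAA or TTCCTC), were in 13 of the 22 windows (59.1%), against 23.3% of all 33469 windows in the table. GGAAGT (or ACTTCC) was in 11 of the 22, against 19.2% of all. In these 22 windows no GAGGAA overlapped a GGAAGT. Over all windows 2.07% held such an overlap, a share so low that 0 of 22 shows no contrast. A match is a description of the letters, not evidence of binding. The windows of 4 genes are shown, with matches in capitals. Csf1r and F13a1 were among the genes whose levels moved most between arrays, Lyz2 was the brightest of the list, and Chi3l1 had the largest strain difference.
Csf1r (chr18:56834129-56834378, plus strand): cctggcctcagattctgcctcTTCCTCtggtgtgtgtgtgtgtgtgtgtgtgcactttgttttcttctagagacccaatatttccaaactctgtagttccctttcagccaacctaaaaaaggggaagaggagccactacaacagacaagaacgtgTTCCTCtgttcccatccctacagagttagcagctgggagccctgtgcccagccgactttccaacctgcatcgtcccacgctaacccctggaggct
F13a1 (chr17:28020947-28021196, plus strand): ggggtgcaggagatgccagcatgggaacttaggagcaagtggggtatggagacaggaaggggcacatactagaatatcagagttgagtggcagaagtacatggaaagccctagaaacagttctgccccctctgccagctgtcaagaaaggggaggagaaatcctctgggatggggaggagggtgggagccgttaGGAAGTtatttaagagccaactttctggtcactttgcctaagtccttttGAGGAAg
Lyz2 (chr7:54798012-54798261, minus strand): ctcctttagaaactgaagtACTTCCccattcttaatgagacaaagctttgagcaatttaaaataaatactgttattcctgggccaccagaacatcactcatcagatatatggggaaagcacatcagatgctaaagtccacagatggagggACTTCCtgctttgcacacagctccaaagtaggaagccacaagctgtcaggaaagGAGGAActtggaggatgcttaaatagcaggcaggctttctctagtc
Chi3l1 (chr13:48193589-48193838, plus strand): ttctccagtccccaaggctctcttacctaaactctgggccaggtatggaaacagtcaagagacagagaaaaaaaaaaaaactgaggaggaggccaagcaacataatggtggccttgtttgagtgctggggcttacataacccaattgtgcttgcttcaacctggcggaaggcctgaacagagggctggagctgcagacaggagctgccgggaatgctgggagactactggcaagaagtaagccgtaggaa
The Csf1r window holds 2 matches to GAGGAA, that of F13a1 holds 1 of each kind, and that of Lyz2 holds 1 GAGGAA and 2 GGAAGT. Neither string is in the windows of Chi3l1, Cd163, Lgmn, Mpeg1 and Vsig4.

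The strain comparison asked which macrophage genes differ in the aorta of hypertensive rats. None of the 31 passed in limma at an adjusted p under 0.05, where 0.0693% of the 21659 tested probe sets did. The smallest limma adjusted p among the members was 0.529. At an unadjusted p under 0.05 there were 2 members on the higher side in SHR, Chi3l1 and Gpnmb, and 0 on the lower side, against 3.01% and 2.54% of all tested probe sets. The SHR arrays all lay above the WKY arrays for 3 members and all below for 0, where 6.48% and 5.61% of tested probe sets were separated in these directions. The members split nearly evenly, with 17 differences above 0 and 14 below. Their median was 0.07, beside -0.01 over all tested probe sets, and 24 of the 31 lay within 0.5 of 0. Leaving out single arrays changed the sign of the difference, or its size by over 1.5 times, in 29 of the 31. The same count was not made over all tested probe sets, so it is not shown to be particular to these genes.

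**Figure D1:**
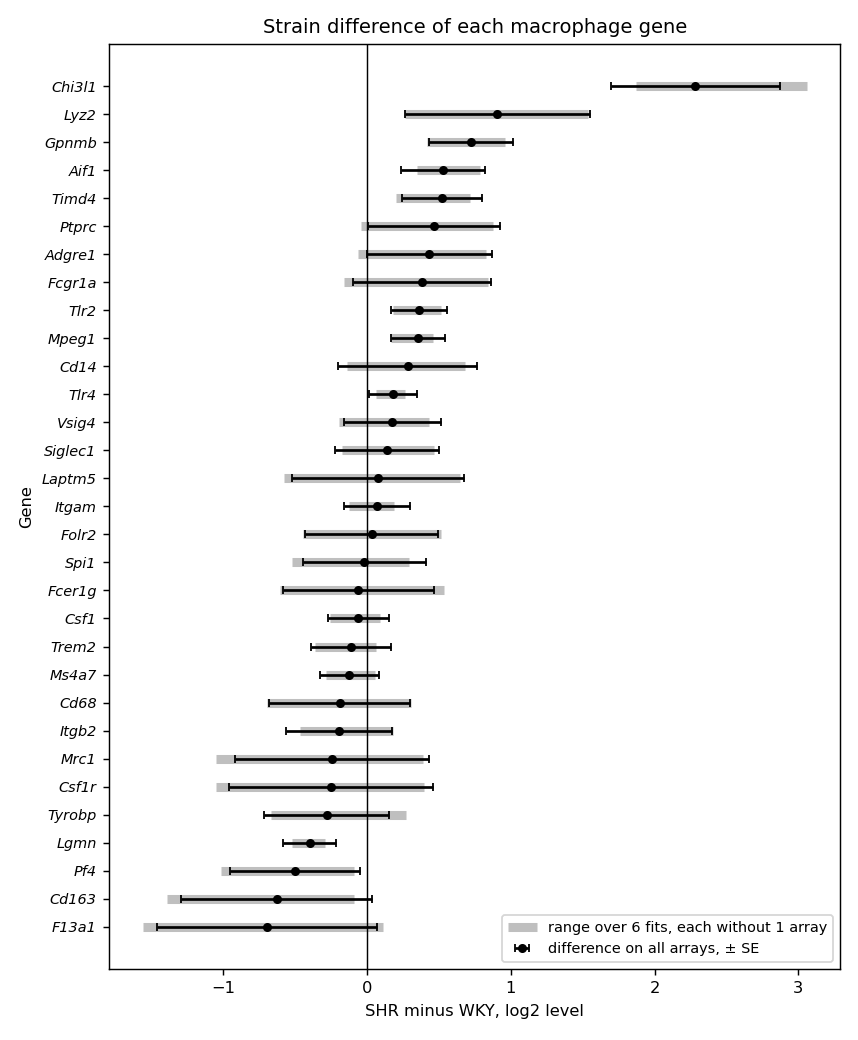
Differences of the 31 macrophage genes, SHR minus WKY on the log2 scale (x axis), with 1 gene per row. Points and bars are the difference and its SE from all 6 arrays, and grey bands span the 6 fits that each leave out 1 array; Chi3l1 stands alone at 2.28, and the bands of 20 of the other 30 genes lie across 0.

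Chi3l1 encodes a secreted chitinase-like protein without enzyme activity that activated macrophages release, as vascular smooth muscle cells and chondrocytes in culture also do. Its log2 level was 6.01, 6.09 and 3.71 on SHR replicates 1 to 3, against 2.92, 3.01 and 3.02 on WKY replicates 1 to 3. Every SHR array lay above every WKY array, but SHR replicate 3 was closer to WKY than to the other SHR arrays. The WKY levels were nearly identical and stood only a little above the array medians. The means were 5.27 ± 1.35 in SHR and 2.99 ± 0.05 in WKY (SD, n = 3), a difference of 2.28 ± 0.59 (SE; limma adjusted p = 0.529). Without SHR replicate 3 the difference was 3.06 and passed (limma adjusted p = 0.00903), in a fit where 0.0139% of all probe sets did. Without SHR replicate 1 it was 1.92 and without SHR replicate 2 it was 1.87, and neither passed (limma adjusted p = 0.606 and 0.993). Chi3l1 was the only member to pass in any of the fits run.

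Gpnmb encodes a glycoprotein of lipid-laden macrophages and is also made by other cells. Levels were 5.95, 4.87 and 5.20 on the SHR arrays and 4.92, 4.55 and 4.39 on the WKY arrays. SHR replicate 2 lay just under WKY replicate 1, so the strains overlapped. The difference of 0.72 ± 0.29 (SE) had a limma adjusted p of 0.883, and it was 0.42 without SHR replicate 1 and 0.96 without SHR replicate 2.

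**Figure D2:**
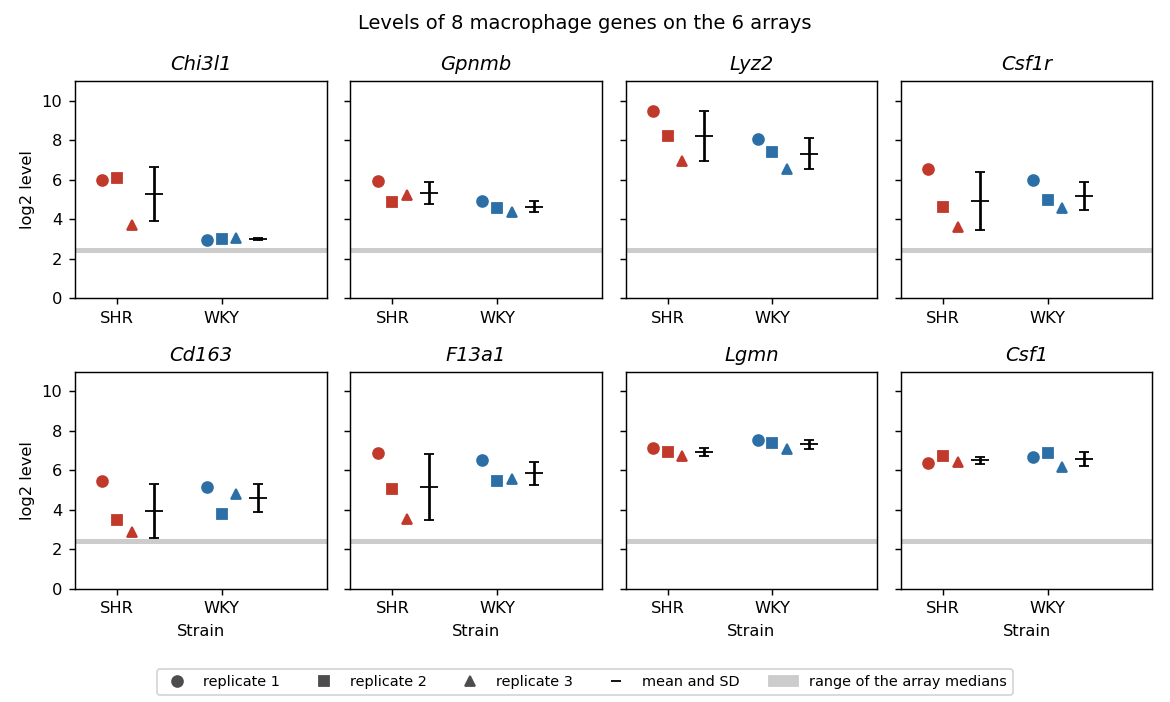
Log2 levels (y axis) of 8 macrophage genes on each array, SHR on the left and WKY on the right of each panel, with the strain mean and SD beside the points and the range of the array medians in grey. Only for Chi3l1 among these 8 do all SHR points lie above all WKY points. For Lyz2, Csf1r, Cd163 and F13a1 the spread within a strain is wider than the gap between the strains. Lgmn and Csf1 vary less, though Csf1 spans 0.69 within WKY.

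Among genes shared by macrophages and other leukocytes, Lyz2, which encodes lysozyme, was the brightest. It lay at 9.50, 8.21 and 6.96 in SHR and at 8.06, 7.39 and 6.52 in WKY. The SHR values spanned 2.54 log2 units, more than the strain difference of 0.91 ± 0.64 (SE; limma adjusted p = 0.923). Without SHR replicate 1 the difference was 0.27, and without SHR replicate 3 it was 1.54. Ptprc, the phosphatase CD45 on all leukocytes, lay at 4.55, 3.33 and 2.70 against 3.51, 3.08 and 2.59. Adgre1, an adhesion receptor on the macrophage surface, gave 4.05, 2.87 and 2.27 against 3.05, 2.42 and 2.42. For Cd68, a glycoprotein of lysosomes, the values were 4.37, 3.34 and 2.36 against 4.03, 3.06 and 3.54. In all 3 genes SHR replicate 1 was the highest array of the 6 and SHR replicate 3 the lowest or among the low ones, and the strains overlapped. Laptm5, a lysosomal protein of blood cells, had a difference of 0.08 over an SHR range of 2.46. Aif1, the actin-binding protein also called IBA1, had an SHR range of only 0.82. It lay at 4.68, 4.41 and 3.86 in SHR and 3.56, 3.50 and 4.31 in WKY, differing by 0.53 ± 0.29 (SE; limma adjusted p = 0.923). The integrin chain Itgb2 differed by -0.19. Its partner Itgam, the pore-forming Mpeg1 and the membrane protein Ms4a7 had means over the 6 arrays of 2.07, 1.64 and 1.47, under every array median. Mpeg1, at 2.19, 1.61 and 1.65 in SHR and 1.45, 1.44 and 1.49 in WKY, was separated by strain but only at that dim level.

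In the growth factor axis the receptor and its ligand behaved differently. Csf1r lay at 6.53, 4.61 and 3.63 on the SHR arrays and at 5.99, 4.95 and 4.58 on the WKY arrays, with replicate 1 highest in each strain. Csf1, the ligand, lay at 6.39, 6.70 and 6.41 in SHR and 6.66, 6.85 and 6.16 in WKY. Its range was 0.31 within SHR and 0.69 within WKY, where Csf1r had 2.90 and 1.41. Spi1 gave 4.56, 3.15 and 2.93 in SHR and 3.88, 3.14 and 3.68 in WKY. The strain differences were -0.25 ± 0.71 for Csf1r, -0.06 ± 0.21 for Csf1 and -0.02 ± 0.43 for Spi1 (SE), all smaller than their errors.

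Genes of resident macrophages that scavenge and clear ranged from widely varying to steady, with SHR ranges of 0.41 (Lgmn) to 3.34 (F13a1). F13a1, the transglutaminase subunit of factor XIII, lay at 6.88, 5.03 and 3.54 in SHR and at 6.53, 5.46 and 5.55 in WKY. Its SHR range was the widest of the 31 members. Mrc1, the mannose receptor, gave 6.21, 4.25 and 3.33 against 5.37, 4.36 and 4.80. Cd163, the receptor for haemoglobin bound to haptoglobin, gave 5.47, 3.49 and 2.87 against 5.13, 3.77 and 4.81. Each of these 3 genes had its highest value on SHR replicate 1 and its lowest on SHR replicate 3, with WKY inside that span. The differences were -0.70 for F13a1, -0.24 for Mrc1 and -0.63 for Cd163. Without SHR replicate 1 they were -1.56, -1.05 and -1.39, and without SHR replicate 3 they were 0.11, 0.39 and -0.09. The size of each thus depended on both of these SHR arrays. Pf4, a chemokine also stored in platelets, differed by -0.50, which was -1.02 without SHR replicate 1 and -0.09 without SHR replicate 3. Folr2, the folate receptor of resident macrophages, differed by 0.03. Siglec1, which binds sialic acid, differed by 0.14. Timd4, a receptor for phosphatidylserine on dying cells, lay at 4.35, 3.31 and 3.44 in SHR and 3.32, 3.11 and 3.11 in WKY (0.52 ± 0.28, SE). Vsig4, a complement receptor, had a mean of 1.70, under every array median. Lgmn, a lysosomal protease that many cells make, was steady, at 7.14, 6.93 and 6.73 in SHR and 7.53, 7.38 and 7.08 in WKY. SHR replicate 1 lay just above WKY replicate 3, and the difference of -0.40 ± 0.18 (SE) did not pass (limma adjusted p = 0.921).

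Fc receptors and their adaptors had the same order of SHR arrays. Fcgr1a, the high-affinity receptor for immunoglobulin G, lay at 5.76, 4.49 and 3.76 in SHR and 4.74, 4.07 and 4.04 in WKY. Fcer1g, the adaptor chain through which it signals, gave 6.80, 5.82 and 4.52 against 6.19, 5.44 and 5.67. Tyrobp, the adaptor also called DAP12, gave 5.05, 4.59 and 3.17 in SHR but 4.58, 4.48 and 4.58 in WKY, where it hardly varied. Its partner Trem2, a receptor for lipids, lay between 3.76 and 4.58 on all arrays. The differences of the 4 genes were 0.39, -0.06, -0.28 and -0.11, each smaller than its SE.

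Of the pattern recognition receptors, Cd14, which hands bacterial lipopolysaccharide to TLR4, lay at 6.20, 5.15 and 4.74 in SHR and 5.88, 5.08 and 4.29 in WKY. Tlr4 itself varied little, from 4.52 to 4.78 in SHR and from 4.27 to 4.64 in WKY. Tlr2, which recognises bacterial lipoproteins, was higher on every SHR array (1.64 to 2.31, against 1.57 to 1.60), but at dim levels, with a mean over the 6 arrays of 1.76, under every array median. Differences were 0.28 for Cd14, 0.18 for Tlr4 and 0.36 for Tlr2.

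The members varied together from array to array. SHR replicate 1 was the highest of the SHR arrays for 28 of 31 members and SHR replicate 3 the lowest for 26, where the shares over all tested probe sets were 32.4% and 33.0%. In WKY, replicate 1 was the highest for 24 members, against 27.5% of all tested probe sets. The order SHR replicate 1 above 2 above 3 held for 24 members, against 18.8% of all tested probe sets. Of all 6 arrays, SHR replicate 1 was the highest for 27 members, a count not made over all tested probe sets. Mean levels over the 31 genes were 5.02, 4.14 and 3.50 in SHR and 4.41, 3.89 and 3.95 in WKY (replicates 1 to 3), so the SHR arrays enclosed the WKY arrays. The median range of a member was 1.63 log2 units among the SHR arrays and 0.75 among the WKY arrays, beside 0.34 and 0.46 over all tested probe sets.

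**Figure D3:**
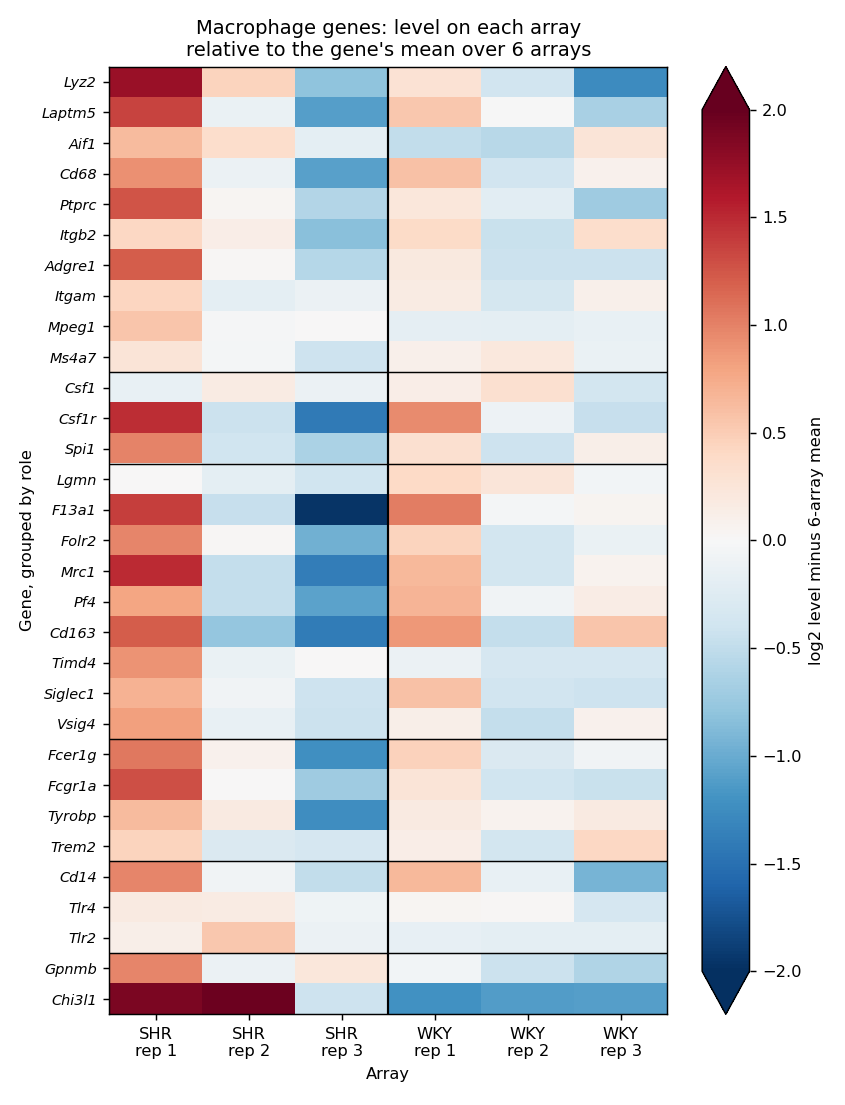
Log2 level of each of the 31 macrophage genes (rows, grouped by role) on each array (columns, SHR left of the line and WKY right of it), minus the gene's mean over the 6 arrays. Red is above and blue below that mean; SHR replicate 1 is red in nearly every row and SHR replicate 3 blue in most, while the Chi3l1 row is red on SHR replicates 1 and 2 and blue on the other 4 arrays, and the Csf1, Lgmn and Tlr4 rows are pale.

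When each gene's strain mean was removed, the deviations of 2 members over the 6 arrays had a median Pearson r of 0.78 over 465 pairs of members, beside 0.01 over all pairs of the 15281 named genes. An r above 0.8 was found for 46.2% of member pairs and 8.85% of all pairs. These figures describe 6 arrays with 4 free deviations and rest much on SHR replicate 1: without it the median among members was 0.57. Adgre1, Folr2, Pf4, F13a1 and Fcgr1a were closest to the rest, with median r of 0.89 to 0.90 with the other members. Csf1 (-0.01), Tlr2 (0.19), Aif1 (0.50), Tlr4 (0.55) and Chi3l1 (0.65) were the least alike.

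The means of 3 marker lists of other cell types moved with the macrophage genes. For 8 genes of white fat cells the mean level was 7.55, 5.53 and 3.80 in SHR (replicates 1 to 3) and 7.32, 5.77 and 5.88 in WKY. All 8 had mean levels above the array medians. The 4 measured endothelial markers averaged 6.44, 4.98 and 4.10 in SHR and 6.23, 5.58 and 5.55 in WKY, and the 6 fibroblast markers 8.86, 8.20 and 7.42 against 8.60, 8.54 and 8.31. The means of all 3 lists had replicate 1 highest in each strain and SHR replicate 3 lowest of all, as the macrophage mean did. Not every gene did so. In WKY, Dcn and Dpt were highest on replicate 2 and Vwf on replicate 3. Lum was lowest on WKY replicate 3, and Col1a1 was highest on SHR replicate 2 and WKY replicate 3. The other measured genes of the 3 lists had the order of the means. Smooth muscle markers ran the other way, at 9.71, 9.98 and 10.05 in SHR and 9.90, 10.07 and 10.12 in WKY. In bulk tissue, fewer cells of a type and less RNA per cell cannot be told apart. The part of fat, adventitia and nerve tissue in the macrophage levels of single arrays was not tested. The fit with the adipocyte mean, given below, reports strain differences only.

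**Figure D4:**
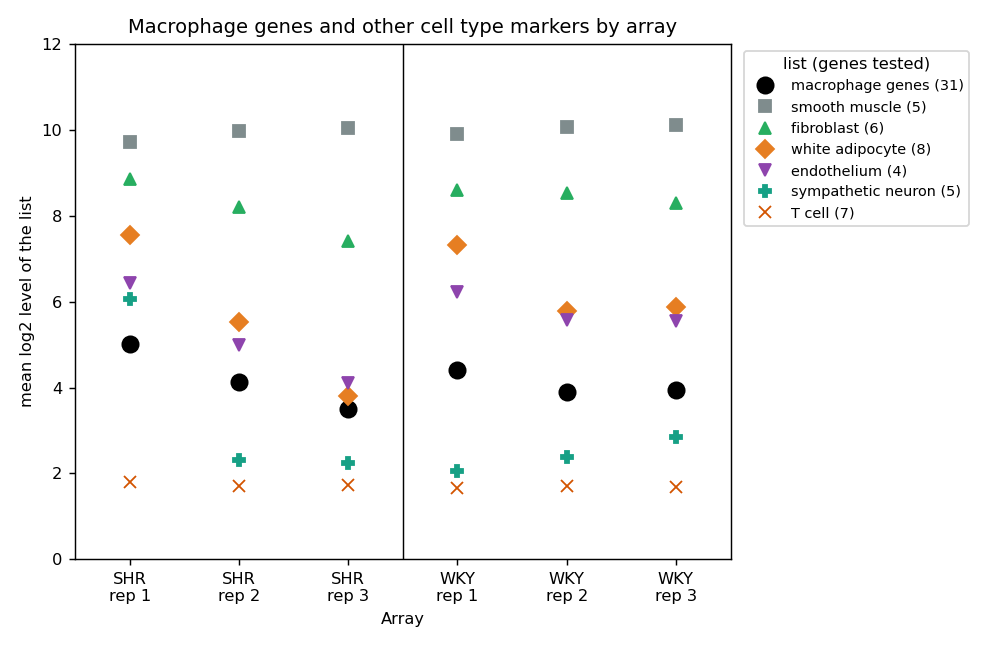
Mean log2 level (y axis) of the 31 macrophage genes and of 6 lists of markers of other cell types on each array (x axis, SHR left of the line and WKY right of it), with 1 point per list and array. White adipocyte, endothelial and fibroblast means are highest on replicate 1 of each strain and lowest on SHR replicate 3, as the macrophage mean is, while smooth muscle is nearly level and the neuron list is high on SHR replicate 1 alone.

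Markers of other leukocytes were low on these arrays. T cell markers averaged 1.65 to 1.79, with 1 of 7 tested genes above the array medians, B cell markers 1.57 to 2.07 (0 of 4), natural killer cell markers 1.54 to 1.81 (0 of 3) and mast cell markers 1.60 to 1.94 (0 of 4). Dendritic cell markers lay at 2.18 to 2.51 (1 of 6) and neutrophil markers at 1.93 to 2.87 (2 of 5). Of the macrophage genes 26 of 31 had a mean above the highest array median, all but Itgam, Mpeg1, Ms4a7, Vsig4 and Tlr2. By comparison, 14440 of the 28879 probe sets had a mean at or above the 50th percentile, 2.35, as did 26 members. On SHR replicate 3 Adgre1 (2.27) and Cd68 (2.36) lay under the highest array median. Such levels do not by themselves identify a cell type, and other cells also make Csf1, Lgmn, Gpnmb and Chi3l1.

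In a fit added after seeing the data, which holds the white adipocyte mean constant, 25 of the 31 differences were above 0. Their median was 0.34, beside -0.015 over all tested probe sets. The adipocyte genes themselves lay lower in SHR, with a median difference of -0.75. Differences of genes that move with them are therefore shifted upward in this fit, and its counts do not show a macrophage gain in SHR. At an unadjusted p under 0.05 there were 9 members higher in SHR and 0 lower, against 3.74% and 2.85% of all tested probe sets, and 0 passed after adjustment. The 9 were Chi3l1, Gpnmb, Lyz2, Adgre1, Ptprc, Fcgr1a, Timd4, Folr2 and Mpeg1. The difference of Lyz2 in this fit was 1.38 ± 0.26 and that of Adgre1 0.76 ± 0.16 (SE), with limma adjusted p of 0.262 and 0.340. Without SHR replicate 1, by contrast, 23 differences lay below 0, with a median of -0.19, and without SHR replicate 3, 27 lay above 0, with a median of 0.40.

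A further fit, also chosen after seeing the data, used the mean of the 10 pan-macrophage and leukocyte members as the covariate. It asked how the other 21 differed at an equal level of these. The covariate genes themselves tended higher in SHR, with a median difference of 0.22 and 7 of the 10 above 0. Differences of genes that move with them are therefore shifted downward, so the lower side is partly set by the choice of covariate. At an unadjusted p under 0.05, 2 were higher in SHR (Chi3l1 and Gpnmb) and 7 lower (F13a1, Pf4, Cd163, Mrc1, Csf1r, Lgmn and Fcer1g), against 3.04% and 3.60% of all tested probe sets. None passed after adjustment. F13a1 came nearest, at -1.23 ± 0.15 (SE; limma adjusted p = 0.0614), then Pf4 at -0.80 ± 0.16 (0.216), Chi3l1 at 1.98 ± 0.44 (0.268) and Mrc1 at -0.71 ± 0.19 (0.420). The 9 resident scavenger and clearance genes are part of the 21 in this fit, and 5 of them are among those 7. These 5 are not separate observations. Cd163, Mrc1, F13a1 and Pf4 had median r of 0.86 to 0.90 with the other members. The same 5 were on the lower side at an unadjusted p under 0.05 without SHR replicate 1, as were 729 of the 21659 tested probe sets.

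Other genes of the same pathways gave no call. In 7 lists, of lineage control, Fc receptor signalling, Toll-like receptor signalling, clearance of dying cells, lipid handling and lysosome, classical activation and alternative activation, 0 genes passed over all probe sets. The counts that follow are at an unadjusted p under 0.05, which 3.01% of all tested probe sets had on the higher side in SHR and 2.54% on the lower. Of 12 lineage genes 1 was on the higher side, the transcription factor Runx1 (4.98, 4.45 and 4.53 in SHR against 3.95, 4.07 and 3.86 in WKY). Maf, another such factor, differed by -0.37. Of 12 genes of Fc receptor signalling 0 were on the higher side and 1 on the lower, the exchange factor Vav1 (-0.50). Every SHR array lay below every WKY array for Vav1. Lyn, a kinase, had the next smallest p, which was not under 0.05 (difference 0.51). Of 13 Toll-like receptor genes 2 were on the higher side. They were Cd180, a relative of TLR4 found on B cells and macrophages (3.40, 3.53 and 3.57 in SHR against 2.52, 3.05 and 2.11 in WKY), and Lbp, which binds lipopolysaccharide (0.66).

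Of 13 clearance genes 2 were on the higher side, Mfge8 (0.39), a bridge to phosphatidylserine that smooth muscle also secretes, and Pros1 (0.71), a ligand of the TAM receptors. Spp1, or osteopontin, was the only 1 of 14 lipid and lysosome genes on that side, with a difference of 0.58 and every SHR array above every WKY array, and the lysosomal lipase Lipa differed by 0.36. Of 12 classical activation genes 1 was on the higher side, the costimulator Cd80 (2.93, 3.64 and 3.51 against 2.47, 2.64 and 2.08), and 2 on the lower, Nos2 (-0.45, at levels under the array medians) and Ptgs2 (-1.25). Of 9 alternative activation genes 1 was on the lower side, the transglutaminase Tgm2 (-0.34), and the chemokine Ccl17 differed by 0.34. The smallest limma adjusted p in these lists was 0.496, for Cd80.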

How the data were processed

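RNA levels were measured on 6 Affymetrix Rat Gene 2.0 ST arrays, 3 of SHR and 3 of WKY, grouped by the sample titles. Per the submitters' processing notes the authors ran RMA in Expression Console (Affymetrix, version 1.2.1), and the deposited table holds its output, log2 levels for each probe set. This method removes background, makes the arrays' distributions alike and summarizes probes. Genome build and annotation version are not stated in the sources used here. Depth does not apply to arrays, and their number limits the precision.

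Genes were named from the platform annotation, with 18511 probe sets of 1 symbol, 575 of several and 9793 not listed. Entrez identifiers matched 18394 to RefSeq GRCr8 symbols. Probe sets with a 6-array mean at or above the 25th percentile, a level of 1.17, were tested (21659). limma 3.58.1 in R 4.3.3 (lmFit, eBayes) fitted strain as the only term, two-sided, with Benjamini-Hochberg adjustment over all tested probe sets. The fit was tested on simulated data. All measured members were to be named, and of each other list the 2 genes with the smallest p. The members, lists and tests were chosen with earlier results of these data known. Alternatives were a replicate block, other filters, normalizations, variance models and array weights, leaving out each array, and covariates. Protein sequences were not used here.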

Additional observations from a re-analysis of the deposited data

How the results depend on the processing

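Over the alternatives, 0 members passed in each fit except the one without SHR replicate 3, where Chi3l1 did, so the count ran from 0 to 1 when arrays were left out. The count at an unadjusted p under 0.05 (2 members) was 5 with the replicate block and 4 with array weights, where 6.51% and 10.4% of all tested probe sets reached it, against 5.55% in the fit without these. It was 1 to 6 without single arrays, beside 3.56% to 6.80% of all tested probe sets. It was 9 when both SHR replicate 1 and WKY replicate 3 were left out, with 2 members higher and 7 lower in SHR beside 5.69% and 6.42% of all tested probe sets, and 9 with the adipocyte covariate (6.59% of all), these last 2 being chosen after seeing the data. The count of members separated by strain (3) was 1 with the filter at the 50th percentile, which removes Mpeg1 and Tlr2. Without single arrays it was 3 to 8, where fewer arrays make separation easier. Separation over all tested probe sets was not counted in these settings, so the counts are not read as a trait of the members. The median r between members (0.78) ran from 0.57 (without SHR replicate 1) to 0.89 (without WKY replicate 3). Same-numbered deviations of SHR and WKY correlated at 0.35, -0.08 and 0.23, and differently numbered ones at -0.32 to 0.17. Replicate 1 was the highest of both strains for 23 members, against 13.6% of all tested probe sets. Whether same-numbered arrays were handled together is not stated and was not tested. With the block, as without it, 0 members passed after adjustment.

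No difference that changed sign had passed, and the cause was not tested. Sign changes were not counted over all tested probe sets. Without single arrays 20 members changed sign: Cd68 -0.70 to 0.31, Adgre1 -0.059 to 0.83, Laptm5 -0.58 to 0.65, Ptprc -0.044 to 0.88, Itgam -0.12 to 0.19, Itgb2 -0.46 to 0.18, Ms4a7 -0.28 to 0.053, Csf1 -0.26 to 0.088, Csf1r -1.05 to 0.40, Spi1 -0.52 to 0.29, Mrc1 -1.05 to 0.39, Folr2 -0.45 to 0.52, F13a1 -1.56 to 0.11, Siglec1 -0.17 to 0.47, Vsig4 -0.19 to 0.43, Fcgr1a -0.16 to 0.84, Fcer1g -0.60 to 0.54, Tyrobp -0.67 to 0.27, Trem2 -0.36 to 0.064 and Cd14 -0.14 to 0.68. With both arrays left out, differences above 0 turned to Adgre1 -0.17, Laptm5 -0.89, Ptprc -0.28, Lyz2 -0.13, Itgam -0.060, Folr2 -0.51, Siglec1 -0.34, Vsig4 -0.11, Fcgr1a -0.28 and Cd14 -0.53. The adipocyte covariate gave Cd68 0.18, Itgb2 0.033, Csf1r 0.29, Spi1 0.27, Mrc1 0.26, Fcer1g 0.34, Tyrobp 0.0067 and Trem2 0.022, and the pan-macrophage covariate Folr2 -0.28, Siglec1 -0.076 and Vsig4 -0.027. Array weights gave Laptm5 -0.34, Folr2 -0.098, Siglec1 -0.083 and Cd14 -0.17, quantile normalization Folr2 -0.0016 and median centring Spi1 0.028. The mean over several probe sets of a gene could not be run, since each member has 1. The small number of arrays, and levels near the array medians, limit what could be detected.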

Other observations

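Some genes outside the list, picked after their values were seen, had the same order of SHR arrays as the macrophage genes. Mpo, the myeloperoxidase of neutrophils and monocytes, lay at 5.97, 4.25 and 3.06 in SHR and at 6.28, 4.35 and 4.49 in WKY (replicates 1 to 3), with replicate 1 highest in each strain. Cxcr2, of the neutrophil markers too, had the same order in SHR, at 2.65, 1.26 and 0.79, against 2.15, 1.94 and 1.19 in WKY. Only its value on SHR replicate 1 lay above the array medians. The other tested neutrophil markers did not have that order. Elane, an enzyme of neutrophil granules, stayed between 1.35 and 1.74 on all arrays. S100a9, a calcium-binding protein of neutrophils, lay between 1.47 and 2.10, and Camp between 2.32 and 2.85. Cx3cr1, the fractalkine receptor of monocytes and macrophages, lay at 4.80, 3.62 and 2.86 in SHR and 3.23, 2.93 and 2.51 in WKY. The sympathetic enzymes Th and Dbh lay at 5.92 and 6.40 on SHR replicate 1, and no other array exceeded 1.68 for Th or 2.80 for Dbh. Phox2a, another marker of sympathetic neurons, was not highest there, at 2.70 against 3.21 on WKY replicate 3.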
